A study of Mus musculus with 30 samples.

Results

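The integrin and laminin subunits are 38 of the 53715 genes counted in embryonic mouse lung and trachea, of which 27 code for integrin subunits and 11 for laminin chains. The set was picked with earlier results of these data known, and membership in it went by gene symbol alone. It holds every protein-coding gene named Itga or Itgb with a digit, Itgad, Itgae, Itgal, Itgam, Itgav or Itgax, and every protein-coding gene named Lama, Lamb or Lamc with a digit. In the study Myocd was deleted to see how airways, tracheal cartilage and epithelial branching develop without differentiated smooth muscle; its product, myocardin, works with the DNA-binding protein SRF to switch on contractile genes. RNA-seq counts came from 6 groups: mutant and control tracheas at E18.5 (6 and 4), mutant and control right lung lobes at E18.5 (6 and 4), and mutant and control lungs at E13.5, with right and left lobes (5 and 5). All mutants were labelled Tbx4rtTAi/+; tetOcrei/+; MyocdF/F, so that Cre depends on a transactivator named for Tbx4, a gene of lung and tracheal mesenchyme, and Myocd is floxed on both copies. Controls were labelled Tbx4rtTAi/+; tetOcrei/+; MyocdF/+, so they carry both transgenes and 1 floxed copy, except that E13.5 control replicate 1 was labelled MyocdF/F with no transgene. Each library held 1 lung or 1 trachea, so every cell type of the organ was read together, whether or not it carries the deletion.

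Integrins are receptors made of 1 α and 1 β subunit that tie cells to the matrix around them, or, on leukocytes, to other cells. Laminins are cross-shaped trimers of an α, a β and a γ chain and form the sheet of a basement membrane, the layer under epithelium and around muscle fibres, vessels and nerves. Integrins α3β1, α6β1, α6β4 and α7β1 bind laminins. Integrins α1β1, α2β1, α10β1 and α11β1 bind collagens, and α5, α8, αv and several β partners bind fibronectin and other ligands through an RGD motif.

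Library depth was 11.7 to 30.5 M counts in tracheas, 19.9 to 32.8 M in E18.5 lungs and 17.4 to 28.5 M in E13.5 lungs. Levels are given as CPM, counts per M of a library's total after TMM scaling. Among the tracheas 2 libraries stood apart from the rest: mutant replicate 4, with 12.4 M counts and 14.5% ribosomal RNA, and control replicate 2, with 11.7 M counts and 16530 genes detected, against 20198 to 26167 in the other tracheas. E13.5 mutant replicate 1, at 17.4 M counts, had the lowest depth of the lungs at that stage. The defining markers fitted the labelled organs: 7 cartilage markers summed to 2927 to 14263 CPM in tracheas and 18.7 to 28.6 CPM in E18.5 lungs, while 5 alveolar type 2 markers summed to 11912 to 15871 CPM in E18.5 lungs and 483 to 1042 CPM in tracheas. Myocd itself averaged 5.63 ± 2.0 CPM in mutant and 4.77 ± 2.95 CPM in control tracheas, 7.23 ± 1.88 and 9.26 ± 2.52 CPM in mutant and control E18.5 lungs, and 10.6 ± 3.21 and 13 ± 4.0 CPM in mutant and control E13.5 lungs (SD, n as above). It passed the test in none of these, and since reads outside the deleted part still count and the labels name no exon, Myocd does not check the genotype labels. The 10 contractile smooth muscle markers summed to 354 to 587 CPM in mutant and 1024 to 1480 CPM in control tracheas, to 1083 to 1151 and 1169 to 1264 CPM in mutant and control E18.5 lungs, and to 543 to 865 and 1010 to 1292 CPM in mutant and control E13.5 lungs.

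SRF, with myocardin, acts through a short A/T-rich element, the CArG box, so the 250 bases before each start in RefSeq were searched for it; the motif reads the same on both strands and no other motif was searched. Of the 38 members 24 were matched, with 27 windows. Members without a window, among them Itga7, Itgb3, Itgb4, Lama1, Lama3, Lama4, Lamc1 and Lamc3, were not searched. A CArG box stood in 2 of the 27 windows (7.41%), against 482 of all 32851 windows (1.47%), and a match of letters is a description and not a site of binding. The windows below are the 2 with a match, in Lama2 and Itgb6, the second Itgb6 window, and those of Itgb8 and Itga10, shown because their levels differ widely between organs or stages in the results that follow. They run 5′ to 3′ on the gene's strand up to its start (GRCm38.p6), and capitals mark the CArG box.
Lama2, chr10:27616943-27617192, minus strand: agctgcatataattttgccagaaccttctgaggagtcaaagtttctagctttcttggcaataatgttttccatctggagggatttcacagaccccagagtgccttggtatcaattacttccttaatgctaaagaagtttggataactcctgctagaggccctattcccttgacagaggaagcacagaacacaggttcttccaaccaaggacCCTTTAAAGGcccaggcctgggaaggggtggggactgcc
Itgb6, upstream start, chr2:60722604-60722853, minus strand: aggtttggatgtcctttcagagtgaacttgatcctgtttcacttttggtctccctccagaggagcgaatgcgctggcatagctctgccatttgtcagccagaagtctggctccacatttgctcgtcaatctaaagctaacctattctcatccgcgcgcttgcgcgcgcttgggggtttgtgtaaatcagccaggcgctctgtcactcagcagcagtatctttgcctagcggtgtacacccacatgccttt
Itgb6, downstream start, chr2:60673694-60673943, minus strand: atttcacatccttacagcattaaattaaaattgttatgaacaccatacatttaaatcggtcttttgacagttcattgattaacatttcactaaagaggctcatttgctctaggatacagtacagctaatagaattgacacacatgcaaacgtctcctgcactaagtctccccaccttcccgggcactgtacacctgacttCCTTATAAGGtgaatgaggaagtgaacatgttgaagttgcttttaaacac
Itgb8, chr12:119238277-119238526, minus strand: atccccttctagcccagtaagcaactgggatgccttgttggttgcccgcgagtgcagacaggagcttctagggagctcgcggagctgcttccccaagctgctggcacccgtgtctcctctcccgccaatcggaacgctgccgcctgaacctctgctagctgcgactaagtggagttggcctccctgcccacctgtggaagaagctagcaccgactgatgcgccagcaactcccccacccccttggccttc
Itga10, chr3:96645334-96645583, plus strand: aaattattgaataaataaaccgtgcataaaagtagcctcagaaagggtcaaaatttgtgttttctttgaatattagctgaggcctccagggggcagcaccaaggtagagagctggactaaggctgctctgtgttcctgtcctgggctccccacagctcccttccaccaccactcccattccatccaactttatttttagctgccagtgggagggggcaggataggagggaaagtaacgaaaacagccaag
The box began 39 bases before the Lama2 start and 50 bases before the downstream Itgb6 start, and these letters were not in the other 3 windows. The C and G content was 47.2% for Lama2, 52.0% and 38% for the Itgb6 starts, 62.4% for Itgb8 and 48.0% for Itga10, against a median of 52.4% over all windows.

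Levels differed widely among the members. Per kb of exon, Itgb1, the β subunit shared by most matrix integrins, was the highest member in all 6 groups, at 156 ± 6.1 CPM per kb in control tracheas, 239 ± 10 in control E18.5 lungs (SD, n = 4 each) and 170 ± 7.3 in control E13.5 lungs (SD, n = 5). In control E18.5 lungs the next were laminin chains, Lamc1 at 160 ± 18, Lama5 at 119 ± 11, Lamb2 at 83.6 ± 4.2 and Lamb1 at 71.0 ± 3.0 CPM per kb, and none of these 5 overlapped its neighbour. In control E13.5 lungs Lamc1 stood at 61 ± 7.3 and Lamb1 at 39.8 ± 4.7 CPM per kb without overlap, while Lamb1 and Lama5 (33.4 ± 1.6 CPM per kb) overlapped. In control tracheas the second place went to Itgb5, the β subunit of the vitronectin receptor αvβ5, at 77.8 ± 4.5 CPM per kb, apart from both Itgb1 above it and Lamb2 at 56.1 ± 11 CPM per kb below it. The next 3 places, Lamc1, Lamb1 and Lama5, overlapped Lamb2 or each other. At the low end, Itgad, a leukocyte α subunit, had at most 10 counts in any library and none in the 4 control tracheas, a limit of 0.0337 CPM over the group for 3 counts. That limit covers counting error only.

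**Figure D1:**
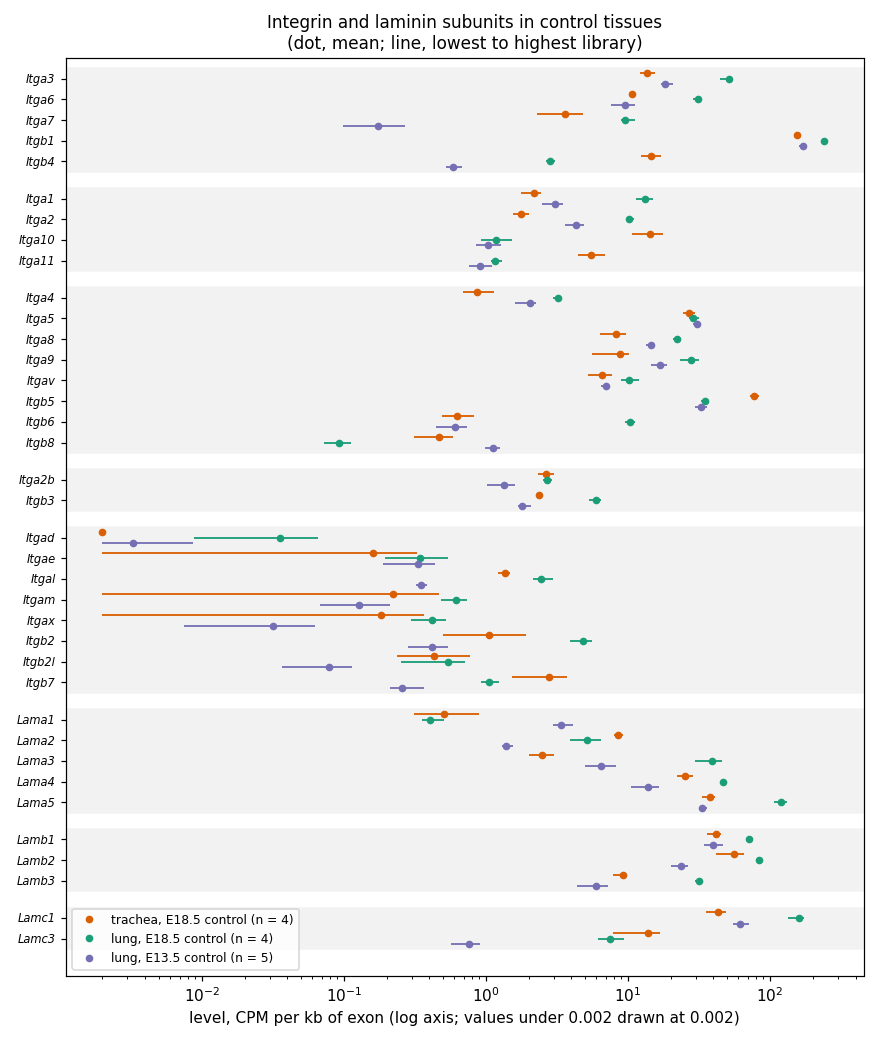
Level of 37 members per kb of exon (log axis) in control tracheas at E18.5 (n = 4), control lungs at E18.5 (n = 4) and control lungs at E13.5 (n = 5); dots are means and lines run from the lowest to the highest library. Blocks from top to bottom are laminin-binding, collagen-binding, RGD- and other matrix-binding, platelet and vascular, and leukocyte integrins, then laminin α, β and γ chains. Itgb1 is the highest in each group, and most members sit further right in E18.5 lungs than in the other groups.

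The largest differences among the members lay between stages of the control lung. At E18.5 relative to E13.5, 31 of the 37 tested members rose and 2 fell by edgeR's quasi-likelihood test, in a comparison where 80.0% of all genes passed the test, 40.4% upwards and 39.6% downwards. The median log2 fold change of the members was 1.79, and that of all tested genes was 0.01. Stage, the lobes sampled and the table of counts changed together, so they cannot be told apart, nor can more cells of a type and more RNA per cell. Marker sums moved between these stages as well. Alveolar type 1 markers summed to 2926 to 3191 CPM at E18.5 and 101 to 126 CPM at E13.5, endothelial markers to 2734 to 2946 and 621 to 805 CPM, and leukocyte markers to 203 to 235 and 108 to 121 CPM. Cardiac muscle markers summed to 214 to 412 CPM at E18.5 and 6.02 to 11.5 CPM at E13.5, with 1 of the 4, Nppa, at 0 in every E18.5 lung, while contractile smooth muscle markers summed to 1169 to 1264 CPM and 1010 to 1292 CPM. The part of these cell types in the members' rises was not tested.

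All 5 subunits of laminin-binding integrins rose in the lung between E13.5 and E18.5. Itga7, whose α7β1 is the main laminin receptor of muscle, had 76.5, 72.1, 71.9 and 90.5 CPM in the 4 control lungs at E18.5, against 2.19, 0.792, 0.916, 1.59 and 1.58 CPM in the 5 at E13.5. Every lung at E18.5 was far above every lung at E13.5, and the log2 fold change of 5.82 (SE 0.197, adjusted p 4.72e-11), or 56.7-fold, was the largest of any member. Mutant lungs had 49.9 to 68.3 CPM at E18.5, with a median of 52.6 CPM, against 0.784 to 1.65 CPM at E13.5. Itgb4, which pairs with α6 in hemidesmosomes, the rivets of stratified epithelium, rose from a low level, with 19.8 ± 1.1 CPM at E18.5 and 4.10 ± 0.44 CPM at E13.5. Its log2 fold change was 2.33 (SE 0.103). Itga6 and Itga3, the α subunits of the epithelial laminin receptors, rose by 1.76 (SE 0.0931) and 1.56 (SE 0.0785), and Itgb1 by 0.55 (SE 0.0595), all on the log2 scale.

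Of the 11 laminin chains 10 rose with stage and 1 fell. Lama1, the α chain of laminin-111, an early embryonic laminin, had 4.82, 3.67, 3.37 and 3.54 CPM at E18.5 and 39.3, 28.4, 32.0, 29.9 and 31.0 CPM at E13.5. The groups did not overlap, and the log2 fold change was -3.00 (SE 0.132, adjusted p 1.36e-10). The largest rise among the chains was that of Lamc3, a γ chain, at 45.3 ± 8.49 CPM at E18.5 and 4.63 ± 0.742 CPM at E13.5, a log2 fold change of 3.35 (SE 0.146). Lama3 and Lamb3, chains that anchor epithelium to its basement membrane, rose by 2.66 (SE 0.153) and 2.47 (SE 0.114) on the log2 scale. Lama5 and Lama4, found in epithelial and vessel basement membranes, rose by 1.89 (SE 0.0739) and 1.81 (SE 0.104), and Lama2, the chain of muscle and nerve laminin, by 1.95 (SE 0.128). Lamb2, Lamc1 and Lamb1 rose by 1.89, 1.44 and 0.89 on the log2 scale.

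Among matrix-binding integrins the 2 αv partners that activate latent TGF-β moved in opposite directions. Itgb6, an epithelial subunit, had 67.4, 75.2, 79.8 and 72.8 CPM at E18.5, against 5.22, 3.17, 3.42, 5.0 and 4.69 CPM at E13.5, with a log2 fold change of 4.16 (adjusted p 7.53e-12, SE 0.13). Itgb8 had 0.916, 1.13, 1.24 and 0.796 CPM at E18.5, against 10.9, 12.1, 14, 12.4 and 12.8 CPM at E13.5, with a log2 fold change of -3.53 (adjusted p 1.40e-10, SE 0.156). Neither gene had a library of one stage inside the range of the other, so the order of the pair was turned round between the stages. Itgav itself, their shared α subunit, rose by 0.59 (SE 0.0812). The fibronectin receptor subunit Itga5 had 142 ± 9.23 CPM at E18.5 and 151 ± 6.65 CPM at E13.5 and did not pass the test, with a 95% interval of -0.17 to 0.10 for its log2 fold change. Itgb5 also missed it, at 117 ± 6.51 and 110 ± 7.83 CPM (adjusted p 0.0567). Itga8, Itga4 and Itga9, receptors for nephronectin, for fibronectin and VCAM-1, and for tenascin and others, rose by 0.67, 0.71 and 0.79.

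Of the collagen receptors, Itga1 rose by 2.17 (SE 0.0971) and Itga2 by 1.29 (SE 0.0818), Itga11 by 0.43 (SE 0.14, adjusted p 0.013), and Itga10, a chondrocyte receptor, had 6.14 ± 1.35 CPM at E18.5 and 5.36 ± 0.834 CPM at E13.5 without passing. Itga11 was the only stage call lost under an alternative, in the fit of all 30 libraries (0.37, adjusted p 0.0699). The platelet and vascular subunits Itgb3 and Itga2b rose by 1.79 (SE 0.0848) and 1.05 (SE 0.124). Of the 7 tested leukocyte subunits 6 rose: Itgax by 3.74, Itgb2 by 3.60, Itgal by 2.85, Itgb2l by 2.82, Itgam by 2.33 and Itgb7 by 2.07 on the log2 scale. They did so at low levels, with Itgb2, the β subunit of the leukocyte integrins, at 14.8 ± 2.22 CPM at E18.5 and 1.27 ± 0.312 CPM at E13.5. Itgae, of intraepithelial lymphocytes, had 1.57 ± 0.787 and 1.53 ± 0.476 CPM and did not pass. Itgam shares 68.7% of its exon bases with the overlapping gene model Gm49368, which is at 0 in every library, so its level may leave out reads that fall in both. Leaving out E13.5 control replicate 1, the library of another genotype, left 33 members past the test.

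**Figure D2:**
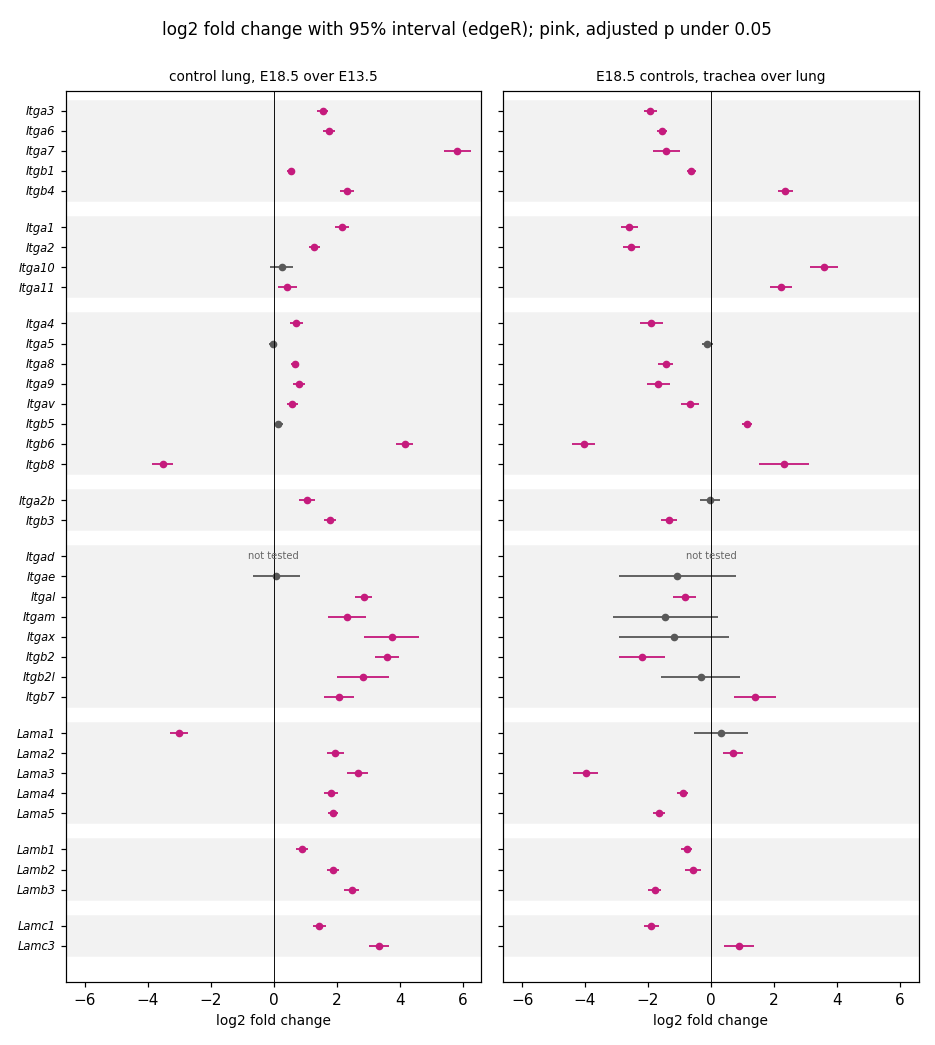
log2 fold change (dots) with its 95% interval (lines) between control lungs at E18.5 and E13.5 (left) and between control trachea and lung at E18.5 (right). Of the 37 members listed, Itgad was not tested in either panel. Pink marks an adjusted p under 0.05. On the left all but Itgb8, Lama1 and Itga5 lie right of 0, and on the right 9 members lie right of 0, with Itga10 at 3.60 the furthest.

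Between trachea and lung at E18.5 members differed in both directions. In control tracheas against control lungs, 8 of the 37 tested members were higher and 22 lower, where 52.4% of all genes passed the test, 24.7% higher and 27.7% lower. The median log2 fold change was -1.06 for the members and -0.05 for all genes. Basal epithelial markers summed to 987 to 1026 CPM in these tracheas and 29.7 to 40.3 CPM in the lungs, and cartilage markers to 9196 to 14263 and 18.7 to 28.1 CPM. Endothelial markers summed to 345 to 418 and 2734 to 2946 CPM, and alveolar type 1 markers to 90.7 to 115 and 2926 to 3191 CPM. Cardiac muscle markers summed to 51.9 to 1266 CPM in tracheas, the highest in replicate 2, and 214 to 412 CPM in lungs. Skeletal muscle markers summed to 36.2 to 2634 CPM in these tracheas and 11.3 to 38.9 CPM in the lungs. The part of these cell types in the differences was not tested.

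Itga10, a collagen receptor of cartilage cells, had 66.1, 55.7, 85.5 and 91.5 CPM in control tracheas, against 5.67, 4.77, 7.97 and 6.17 CPM in control lungs. The lowest trachea stood well above the highest lung, and the log2 fold change of 3.60 (SE 0.197, adjusted p 6.21e-08) was the largest upward. The overlapping gene model Gm42957, which covers 33.5% of its exon bases, stayed at or under 1.22 CPM in every library. Itga11, a collagen receptor of fibroblasts and perichondrium, was higher by 2.23 (SE 0.163), with 28.2 ± 5.77 and 5.97 ± 0.522 CPM, while Itga1 and Itga2 were lower, at -2.60 (SE 0.121) and -2.53 (SE 0.128). The 4 collagen-binding subunits were thus split evenly, 2 higher and 2 lower.

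Of the laminin receptors, Itgb4 was higher in the trachea and the other 4 subunits were lower. Itgb4 had 86.9, 98.7, 104 and 120 CPM in control tracheas, against 18.7, 19.8, 19.5 and 21.4 CPM in control lungs. Its log2 fold change was 2.36 (SE 0.105, adjusted p 1.35e-08), whereas its partner Itga6 had -1.55 (SE 0.0737). Itga3 was at -1.92 (SE 0.0985), Itga7 at -1.41 (SE 0.194) and Itgb1 at -0.62 (SE 0.0616). Per kb of exon, Itgb4 stood at 14.6 ± 2.0 and Itga6 at 10.6 ± 0.47 CPM per kb in control tracheas, against 2.83 ± 0.16 and 31.0 ± 1.7 CPM per kb in control lungs.

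Among the remaining matrix receptors Itgb6 and Itgb8 again lay in opposite directions. Itgb6 had 5.86, 4.12, 4.46 and 3.47 CPM in control tracheas, against 67.4, 75.2, 79.8 and 72.8 CPM in control lungs, with a log2 fold change of -4.04 (adjusted p 6.02e-09, SE 0.162). Itgb8 had 6.51, 3.47, 5.31 and 5.28 CPM in control tracheas, against 0.916, 1.13, 1.24 and 0.796 CPM in control lungs, with a log2 fold change of 2.32 (adjusted p 0.00025, SE 0.362). No library overlapped for either. The stage and tissue comparisons share the 4 control lungs at E18.5, where Itgb6 was high and Itgb8 low, so the 2 comparisons are not independent. Itgb5 was higher by 1.15 (SE 0.0701), at 261 ± 15.3 and 117 ± 6.51 CPM, and Itga5 had 132 ± 10.8 and 142 ± 9.23 CPM without passing. Itga4, Itga9, Itga8 and Itgav were lower, at log2 fold changes of -1.89, -1.67, -1.44 and -0.65.

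Of the laminin chains 8 were lower in the trachea and 2 higher. Lama3 had the largest of these differences, at -3.99 (SE 0.177), with 26.8 ± 4.35 CPM in control tracheas against 422 ± 88.1 CPM in control lungs. Lamc1, Lamb3 and Lama5 had differences of -1.89, -1.79 and -1.65, and Lama4, Lamb1 and Lamb2 of -0.90, -0.77 and -0.58. Lama2 was higher, with 150, 130, 146 and 129 CPM in control tracheas and 106, 75.2, 94.3 and 63.5 CPM in control lungs. No library of the trachea fell within the range of the lungs (log2 fold change 0.71, SE 0.147, adjusted p 0.00188). Lamc3 was higher by 0.90 (SE 0.211), at 84.9 ± 24.9 and 45.3 ± 8.49 CPM, with overlap between the organs, and Lama1 had 4.84 ± 2.56 and 3.85 ± 0.659 CPM without passing. Leukocyte subunits divided as well: Itgb7 was higher by 1.41 (SE 0.3), Itgb2 and Itgal were lower, at -2.19 (SE 0.333) and -0.84 (SE 0.16), and Itgae, Itgam, Itgax and Itgb2l did not pass, with SEs of 0.57 to 0.84. Of the platelet subunits Itgb3 was lower, at -1.34 (SE 0.114) and Itga2b did not pass, at 14.4 ± 1.55 and 14.6 ± 0.958 CPM. All 30 calls held under every alternative of this comparison, including the one without control trachea replicate 2.

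Read as shares of their class per kb, the laminin chains gave each organ and stage its own mix. Among α chains, Lama5 made up 50.8 ± 1.2% in control tracheas, 56.5 ± 5.0% in control E18.5 lungs and 57.2 ± 3.2% in control E13.5 lungs. Lama2 made up 11.4 ± 0.77% in control tracheas, against 2.46 ± 0.54% and 2.40 ± 0.29% in the lungs, whereas Lama3 made up 3.33 ± 0.47%, against 18.6 ± 3.7% and 10.9 ± 1.1%. Lama1 made up 0.700 ± 0.44% and 0.191 ± 0.029% at E18.5, and 5.76 ± 0.28% in E13.5 lungs. Among γ chains, Lamc3 made up 21.1 ± 3.9% in control tracheas, 3.37 ± 0.69% in control E18.5 lungs and 1.05 ± 0.16% in control E13.5 lungs. Among β chains, Lamb2 was above Lamb1 in both E18.5 organs, at 52.1 ± 3.4% and 39.2 ± 2.0% in control tracheas and 44.9 ± 1.3% and 38.1 ± 1.4% in control lungs. At E13.5 the order was the other way, with Lamb1 at 57.5 ± 1.1% and Lamb2 at 34.0 ± 2.1%. These shares carry no test of their own.

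**Figure D3:**
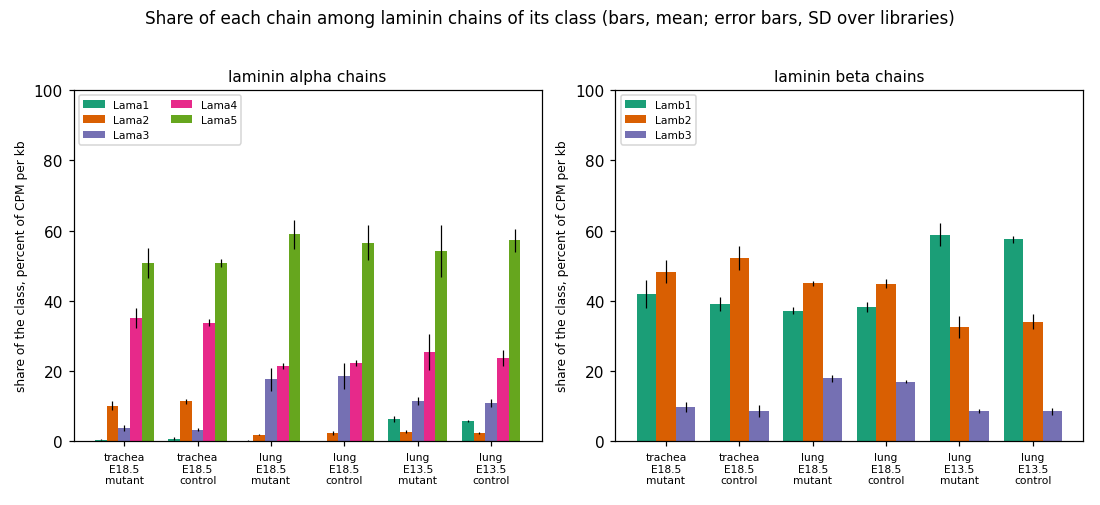
Share of each laminin α chain (left) and β chain (right) in the CPM per kb of its class (y axis, percent) in the 6 groups, as means with SD over libraries (n = 6, 4, 6, 4, 5 and 5 from left to right). Lama2 takes 11.4% of α chains in control tracheas and 2.46% in control E18.5 lungs, and mutant bars lie near those of their controls.

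Fewer members passed the test between mutants and controls, and a missed call does not show equal levels. In E18.5 lungs 1 of the 37 tested members fell and 0 rose, in a comparison where 0.584% of all genes passed, 0.0344% higher and 0.55% lower. The member that fell was Itga7. Mutant lungs had a lowest value of 49.9, a median of 52.6 and a highest of 68.3 CPM, against 76.5, 72.1, 71.9 and 90.5 CPM in controls, so that every mutant was below every control. The log2 fold change was -0.46 (SE 0.094, adjusted p 0.0268 by edgeR's quasi-likelihood test), or 1.38-fold lower, and it was negative in all 16 alternatives, from -0.61 to -0.39, with adjusted p between 0.000454 and 0.377. The call was lost in the fit of all 30 libraries, with the ribosomal RNA share as a covariate, and when control replicate 1, 3 or 4 or mutant replicate 2, 4 or 6 was left out. The contractile marker sums of the same lungs did not overlap either, cardiac muscle markers summed to 185 to 426 CPM in mutants and 214 to 412 CPM in controls, and ribosomal RNA made up 0.0815 to 0.126% of counts in mutants and 0.0648 to 0.087% in controls; the part of these in the result was not tested. As a share of the 3 laminin-binding α subunits per kb, Itga7 made up 7.95 ± 1.1% in mutant and 10.4 ± 1.0% in control lungs.

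The other 36 members did not pass in E18.5 lungs. Itgam had the largest estimate, at 1.13 to 1.99 CPM with a median of 1.36 CPM in mutants, against 3.70, 3.34, 2.44 and 2.86 CPM in controls. The groups did not overlap, the log2 fold change was -1.08 (SE 0.261, adjusted p 0.0758), and DESeq2 called it (-1.09, adjusted p 0.00738) beside Itga7; by DESeq2 0.862% of all genes passed. The 10 leukocyte markers summed to 167 to 211 CPM in mutant and 203 to 235 CPM in control lungs. At an unadjusted p under 0.05 there were 7 members, the other 5 being Lama2, Itgb4, Itga1, Itgb5 and Itga5, where 9.41% of all genes reached it. For the most abundant members the intervals were narrow: the 95% interval of the log2 fold change was -0.16 to 0.10 for Itgb1, -0.09 to 0.21 for Lama5 and -0.12 to 0.12 for Lamb2. The median of the members was -0.06, and that of all genes was 0.00.

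**Figure D4:**
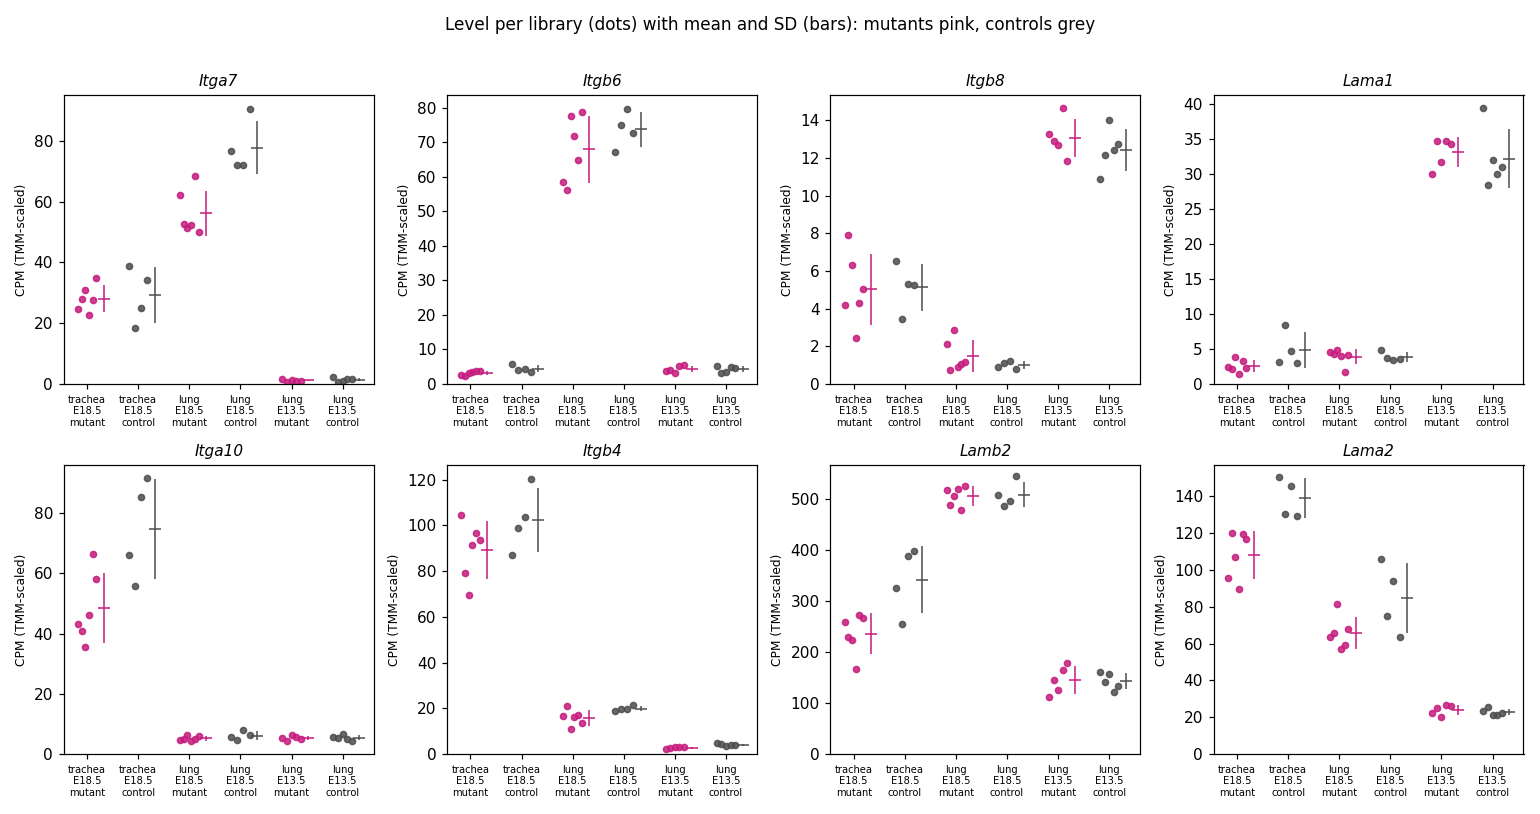
Level of 8 members in every library (dots; CPM on TMM-scaled library sizes, linear axis from 0), with mean and SD (bars), for mutants (pink) and controls (grey) of the trachea at E18.5, the lung at E18.5 and the lung at E13.5. Itga7 is lower in all mutant than in all control E18.5 lungs and overlaps in the other 2 pairs, while Itgb6, Itgb8, Lama1, Itga10 and Itgb4 separate organs or stages in both genotypes.

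In the trachea, 0 of 37 tested members passed edgeR's test and 0 passed DESeq2, where 0.071% and 0.309% of all genes passed. At an unadjusted p under 0.05 there were 6 members, with 6.75% of all genes reaching it: Lamb2, Itga10, Itga11, Lama2, Itga8 and Lama1. Lamb2 had 166 to 273 CPM in mutants, with a median of 244 CPM, against 325, 255, 388 and 397 CPM in controls, with a log2 fold change of -0.51 (adjusted p 0.492, SE 0.144). Only control replicate 2, a library that stood apart, lay within the mutant range. Lamb2 passed in the fit of all 30 libraries (-0.53, adjusted p 0.0311) and without both libraries that stood apart (-0.53, adjusted p 0.0415), an alternative chosen after seeing the data. Lama2 had 89.7 to 120 CPM in mutants, with a median of 112 CPM, against 150, 130, 146 and 129 CPM in controls, without overlap (log2 fold change -0.34, SE 0.107, adjusted p 0.596). Itgb1 did not overlap either, at 348 to 608 CPM with a median of 540 CPM in mutants, against 624, 611, 669 and 637 CPM in controls (-0.27, SE 0.128, adjusted p 0.733); the lowest value was that of mutant replicate 4.

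The collagen receptors did not pass the test in the trachea. Itga10 had 35.4 to 66.5 CPM in mutants, with a median of 44.7 CPM, against 66.1, 55.7, 85.5 and 91.5 CPM in controls (-0.60, SE 0.177, adjusted p 0.51). Itga11 had 16 to 24.8 CPM, with a median of 19 CPM, against 24.0, 23.0, 35.3 and 30.5 CPM (-0.51, SE 0.157, adjusted p 0.592). In both genes the 2 groups overlapped. Cartilage markers of the same libraries summed to 2927 to 11546 CPM in mutants and 9196 to 14263 CPM in controls, and ribosomal RNA made up 0.758 to 14.5% and 0.812 to 2.65% of counts; their part in these values was not tested. Itga7, lower in mutant E18.5 lungs, had 22.6 to 34.8 CPM in mutant tracheas, with a median of 27.8 CPM, against 38.8, 18.4, 25.1 and 34.4 CPM in controls. The groups overlapped fully, and the 95% interval of the log2 fold change was -0.44 to 0.37. The median of the members was -0.10 and that of all genes 0.02.

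At E13.5, 0 of the 35 tested members passed edgeR's test, where 0.206% of all genes passed, and Itgad, Itgax and Itgb2l were too low to test. At an unadjusted p under 0.05 there were 3 members, with 3.57% of all genes reaching it: Itgb3, Itgb4 and Itga11. Itgb3, the β subunit of the platelet fibrinogen receptor and of αvβ3, had 7.96, 8.54, 7.44, 8.60 and 8.32 CPM in mutant lungs, against 12.3, 10.3, 9.96, 10.5 and 10.3 CPM in control lungs. The groups did not overlap, the log2 fold change was -0.38 (SE 0.0859, adjusted p 0.22 by edgeR), and DESeq2 called it (-0.38, adjusted p 0.0281), where 0.24% of all genes passed. Itgb4 had 2.0, 2.56, 2.86, 3.02 and 3.29 CPM in mutants, against 4.76, 4.32, 3.67, 3.82 and 3.94 CPM in controls, again without overlap (-0.56, SE 0.141, adjusted p 0.329). Megakaryocyte markers summed to 8.51 to 17.9 CPM in mutant and 9.21 to 12.8 CPM in control lungs. Basal epithelial markers summed to 4.12 to 5.95 CPM in mutants and 5.26 to 8.10 CPM in controls; of the 5 markers 3 were tested, 0 passed and all 3 had lower estimates in mutants, with a median log2 fold change of -0.73. The part of either in the values of Itgb3 and Itgb4 was not tested. The median of the members was 0.00 and that of all genes 0.01.

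Whether the mutant effect differed between organs or stages was tested directly. Between trachea and lung at E18.5, 0 of 37 members passed by edgeR and 0 by DESeq2, where 0.0252% and 0.195% of all genes passed, and 4 members had an unadjusted p under 0.05 (6.92% of all genes). For Itga7 the trachea's effect minus the lung's was 0.47 on the log2 scale (SE 0.219, 95% interval 0.02 to 0.92, adjusted p 0.706), and for Lamb2 it was -0.46 (SE 0.162, adjusted p 0.511). Between E18.5 and E13.5 lung, 0 of 37 passed by either tool, where 0.0268% and 0.121% of all genes passed, and 4 members had an unadjusted p under 0.05 (5.85% of all genes). The largest estimate was that of Itgam, at -1.12 (SE 0.382, adjusted p 0.631), and Itga7 had -0.14 (SE 0.278). So the fall of Itga7 in E18.5 lungs was not shown to differ from its values in the other 2 tissues.

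**Figure D5:**
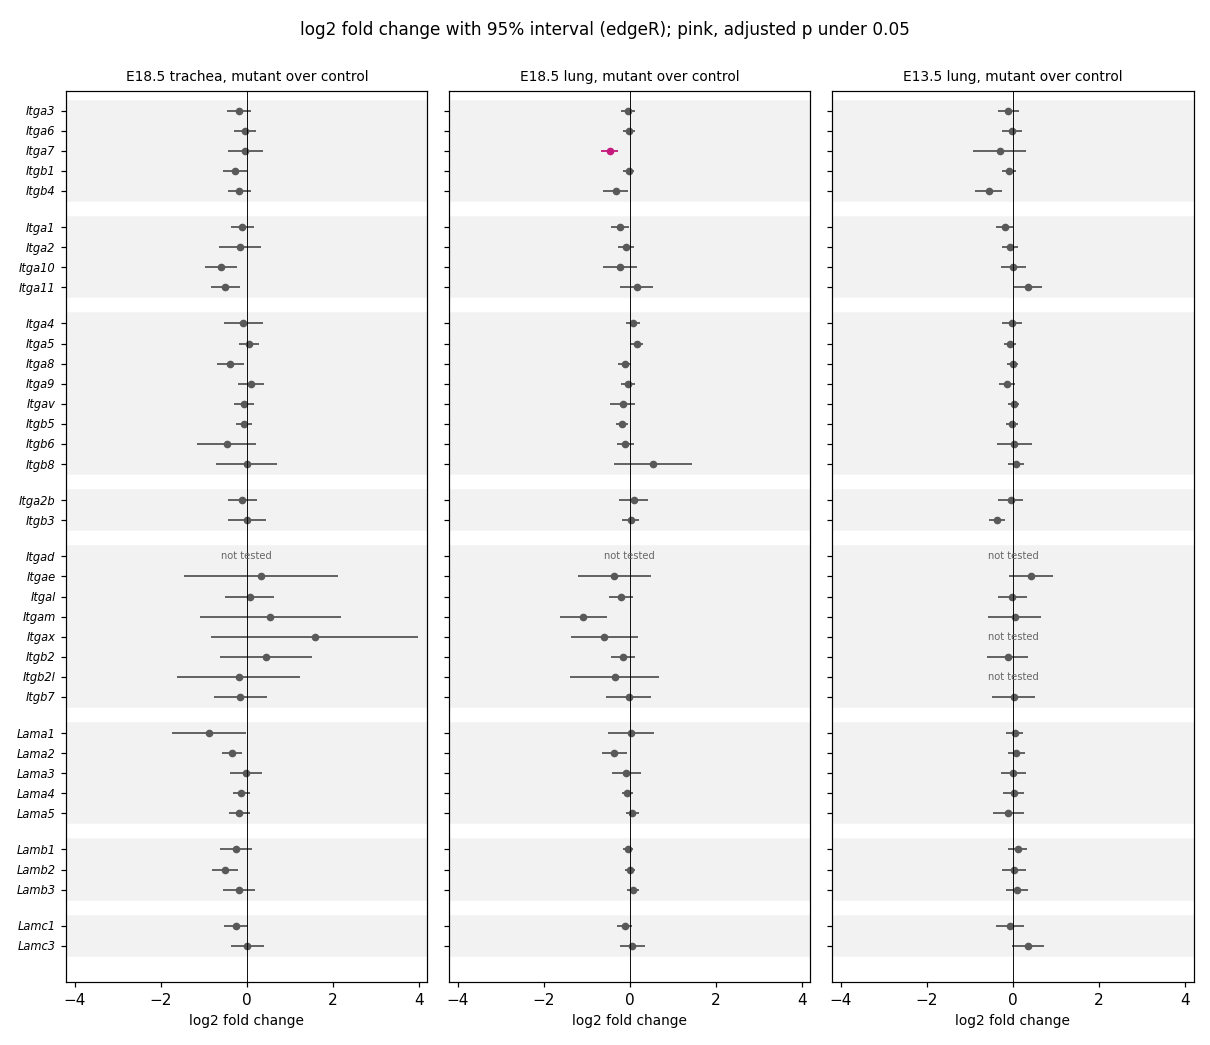
log2 fold change (dots) with its 95% interval (lines), mutant over control, in E18.5 trachea, E18.5 lung and E13.5 lung. Of the 37 members listed, Itgad was not tested in any panel, and Itgax and Itgb2l were not tested at E13.5. Pink marks an adjusted p under 0.05. Itga7 in E18.5 lung is the only member marked, at -0.46, and intervals are widest for leukocyte subunits in the trachea.

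The genes that work with these receptors were counted in 2 lists. Of 30 further basement membrane and matrix ligands, 23 rose and 4 fell in control lungs at E18.5 relative to E13.5, where 40.4% of all genes rose and 39.6% fell. Col4a3 and Col4a4, collagen IV chains of mature basement membranes, had 280 ± 44.2 and 430 ± 66.5 CPM at E18.5, against 5.18 ± 0.584 and 33.1 ± 2.63 CPM at E13.5 (log2 fold changes of 5.82 and 3.75). Npnt, which codes for nephronectin, a ligand of α8β1, rose by 2.75 and Egflam, a dystroglycan ligand, by 2.72. Between control trachea and lung 8 ligands were higher and 16 lower, where 24.7% of all genes were higher and 27.7% lower: Postn and Tnxb, matrix proteins of connective tissue, were higher by 2.38 and 3.21, and Col4a4 and Npnt were lower, at -6.47 and -3.63. Of 37 cytoplasmic and membrane partners 30 rose and 2 fell with stage, among them Cd9 (3.31), Lims2 (4.16), Bcam, a laminin receptor outside the integrin family (2.07), and Cd47 (1.28). In the trachea 5 partners were higher and 24 lower than in the lung, against the same shares of all genes, with Tns1 at -2.99, Bcam at -2.36, Lims1 at -1.91 and Fermt2, a kindlin that activates integrins, at -1.71.

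By edgeR, 1 gene of both lists together passed in any mutant comparison: Fn1, which codes for fibronectin. It passed in E18.5 lung, where 0.584% of all genes did. It averaged 3996 ± 361 CPM in mutants, with a range of 3401 to 4476 CPM, against 5059 ± 395 CPM in controls, with a range of 4626 to 5567 CPM. The groups did not overlap, and Fn1 fell by 0.34 on the log2 scale (SE 0.0714, adjusted p 0.0371). The call was lost in 9 of its alternatives, all with the same sign, including the fit of all 30 libraries (-0.34, adjusted p 0.608) and the one without control replicate 1 (-0.29, adjusted p 0.198). In E13.5 lung 0 of 29 tested ligands and 0 of 36 partners passed by edgeR, with 0 and 2 at an unadjusted p under 0.05 and none by DESeq2; over all genes the shares were 0.206%, 3.57% and 0.24%. In the trachea 0 of 29 ligands and 0 of 37 partners passed, with 7 and 2 at an unadjusted p under 0.05 and 1 and 0 by DESeq2; over all genes the shares were 0.071%, 6.75% and 0.309%.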

How the data were processed

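Per the labels' protocols, RNA of single lungs and tracheas was extracted with TRIzol, and polyA libraries were made with a TruSeq kit that does not mark strand. The deposited counts are raw reads per gene, made with featureCounts 1.6.2 and GENCODE vM17 on GRCm38 per the file headers, after alignment with STAR per the submitters' processing notes. Strand was not used, so reads shared by overlapping or antisense genes cannot be told apart. Symbols came from GENCODE vM21, which names 53620 of the 53715 IDs.

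From the counts, 7 comparisons were tested over all genes with edgeR 4.0.16 in R 4.3.3: TMM scaling, filterByExpr, and a robust quasi-likelihood fit with a two-sided F test. A gene was called at an adjusted p (Benjamini-Hochberg) under 0.05. The SE is the fold change divided by the square root of F. Each fit used the groups compared, and the differences of the mutant effect are contrasts over 20 libraries. CPM come from 1 scaling of all 30 libraries; CPM per kb divide them by the exon length in the tables. Depth was 11.7 to 32.8 M counts; edgeR's biological coefficient of variation came to 0.37 for tracheas, 0.184 for E18.5 lungs and 0.14 for E13.5 lungs. The procedure was tested on simulated counts.

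1 member is counted with the others but not reported here by name. Members, partner lists and markers were chosen with earlier results of these data known. Every member past the threshold is named and followed under each alternative, with up to 4 genes of each partner list, those of lowest p at 1 CPM or more. Alternatives were DESeq2 1.42.0 as test and as scaling, no filter, a replicate block, a fit of all libraries, ribosomal RNA as a covariate and leaving out each library. Same-numbered control tracheas and lungs at E18.5 deviated together (r 0.136 to 0.239 in 4 pairs over 15649 genes, each best with its own number). Mutant and control lungs at E18.5, of different animals, also matched best on numbers 2, 3 and 4 (r 0.165, 0.291 and 0.135). Each mutant trachea at E18.5 also matched best with the mutant lung of its own number. Since libraries of different animals matched too, these r values cannot settle whether a shared number is a shared animal. The block used the numbers as pairs and left 8 members higher and 22 lower in control tracheas against control lungs. No 2 libraries of a group were copies: chi-square per degree of freedom was at least 3.81 in every pair. Promoter windows are RefSeq's.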

Additional observations from a re-analysis of the deposited data

Results flagged for a closer look

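A sample far from the others of its group by Dixon's test was found 20 times among 222 combinations of member and group; chance flags about 1 in 20. Mutant trachea replicate 4, the library with the most ribosomal RNA, accounted for 6. In it the leukocyte subunits Itgax, Itgb2 and Itgal stood at 11.7, 10.9 and 17.4 CPM, against 0.103 to 1.56, 2.24 to 3.85 and 7.10 to 9.03 CPM in the other 5 mutant tracheas. Its 10 leukocyte markers summed to 145 CPM, the lowest of the mutant tracheas. The sum does not show single markers, and the part of leukocytes in these values was not tested. The laminin chains Lamc1, Lamb1 and Lama4 stood low in it, at 205, 179 and 240 CPM, against 295 to 334, 341 to 412 and 273 to 292 CPM in the others. In the remaining mutant tracheas, Itgad was high in replicate 2 (0.177 CPM, 4 counts) and Itgb2l in replicate 3 (2.68 CPM). In control tracheas, Itga9 was low in replicate 2 (43.1 CPM, against 72.9 to 78.5 CPM) and Lamb3 in replicate 3 (52.3 CPM).

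In mutant E18.5 lungs, replicate 3 was high for Itgav (138 CPM, against 82.4 to 91.8 CPM) and Lama3 (540 CPM) and low for Itga5 (133 CPM, against 161 to 168 CPM). Itgb2 was high in replicate 2 (17.1 CPM), Itgad in replicate 4 (0.318 CPM), and Lama1 was low in replicate 5 (1.76 CPM). In E13.5 lungs, mutant replicate 1 was low for Lama5 (195 CPM, against 370 to 425 CPM) and Itga3 (67.5 CPM, against 100 to 107 CPM), and mutant replicate 3 was low for Lamb1 (345 CPM). Control replicate 1, the library without transgenes, was high for Itgb3 (12.3 CPM, against 9.96 to 10.5 CPM).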

How the results depend on the processing

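Counts of members past the test changed in the mutant comparisons. DESeq2's test gave 1 in E13.5 lung (Itgb3) and 2 in E18.5 lung (Itgam and Itga7). In E18.5 lung the fit of all 30 libraries and ribosomal RNA as a covariate gave 0, and leaving out 1 library gave 0 to 1. In the trachea the fit of all 30 libraries gave 1, as did leaving out both libraries that stood apart, chosen after seeing the data; it was Lamb2 each time. The cause was not tested. Counts in the remaining alternatives kept within 1.5 times, at 32 to 34 for stage and 30 to 31 for tissue. Calls gained there were Itgb5 (scaling; without E18.5 control lung replicate 3) and Itgad (no filter; DESeq2) for stage, and Itgad (no filter) and Itgam (all libraries; without control trachea replicate 2) for tissue. With a replicate block the counts were 1 in E18.5 lung, 0 in E13.5 lung and the trachea, 0 and 0 for the differences, 33 for stage and 30 for tissue, and no call changed. Mutant tracheas and lungs at E18.5 had r of 0.0761 to 0.248, each best with its own number. The block for the difference between organs used these numbers as pairs too. Mutant and control lungs at E13.5 had r of -0.228 to -0.0043, none best with its own number. Over all genes, DESeq2 called 99 genes in the trachea, 262 in E18.5 lung and 79 in E13.5 lung, and edgeR called 13, 102 and 34. Low counts limit the leukocyte subunits, with SEs up to 1.13 on the log2 scale in the trachea.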
